A study of Mus musculus with 18 samples.

Results

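The hippocampal tRNA pool of 5xFAD mice was compared with that of wild-type (WT) mice when RTP801 was silenced in both genotypes. All mice labelled 5xFAD shRTP801 (6 mice) and WT shRTP801 (4 mice) were taken, which gave 10 of the 18 mice of the series. All animals were males. The 5xFAD line is a mouse model of Alzheimer's disease (AD) that carries human amyloid precursor protein with the Swedish, London and Florida mutations and mutated human presenilin-1, both driven by the Thy-1 promoter, and WT mice carry neither transgene. At 6 months of age, each of the 10 mice was injected on both sides, in the CA1 and the dentate gyrus of the dorsal hippocampus, with a neuron-targeted adeno-associated virus that encodes GFP and a short hairpin RNA against RTP801 (shRTP801). Hippocampi were taken 4 weeks later and gave 1 library per mouse. The remaining 8 mice received a control hairpin (shCT: 3 5xFAD and 5 WT mice) and enter here only where the genotype difference under shRTP801 is set against that under shCT. The virus is directed to neurons but RNA was taken from the whole tissue, so that fewer cells of a type and less RNA per cell cannot be told apart. The silencing itself was not checked here, since the mRNA of Ddit4, the gene that encodes RTP801, is not measured by an assay of tRNA-sized RNA. The study reported a partial knockdown in such mice, without a significant treatment effect for the protein or the mRNA.

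tRNAs are transcribed by RNA polymerase III as precursors with a 5′ leader and a 3′ trailer, which are removed before the mature tRNA leaves the nucleus. A few tRNA genes also hold an intron next to the anticodon. The tRNA splicing endonuclease excises it, and the tRNA ligase complex (tRNA-LC), with HSPC117 as its catalytic subunit, joins both exons. RTP801, also called REDD1, is a stress-induced protein known as an inhibitor of mTOR, and the study asked whether it also affects tRNA processing through the tRNA-LC. Hydro-tRNA-seq takes RNA of tRNA size from a gel and breaks it up by hydrolysis before sequencing, so that a read covers only a part of a tRNA. Mitochondrial tRNAs (mt-tRNAs), small nucleolar RNAs (snoRNAs) and other RNAs of similar size are sequenced along with the cytosolic tRNAs.

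Both shRTP801 groups held 18126375 to 34488923 reads per library, of which 50822 to 318628 were from precursors, 6013 to 13720344 from mt-tRNAs and 20144 to 2034102 from snoRNAs. Mouse 7 of the 5xFAD group and mouse 4 of the WT group stood apart. In each of them 98.0% of the reads came from mature tRNAs, against 34.1% to 85.8% in the other 8 mice. Their mt-tRNA and snoRNA values therefore rest on the fewest reads of their groups, and results are given with and without them. These libraries were recognised from the same class shares that are compared here. The library of WT shCT mouse 5 was of the same kind and touches only the comparisons with the shCT mice. Markers of single cell types gave little signal in this size range. The 6 neuronal microRNA genes present (of the Mir124, Mir9, Mir128 and Mir138 families) held at most 22 reads in any of the 10 mice, the immune marker Mir155 at most 4, the endothelial marker Mir126a at most 9, and the oligodendrocyte marker Mir338 at most 4. Only Mir219a-2, a microRNA gene of oligodendrocytes, passed the filter on low values. Reads were counted for the gene as a whole in RNA of tRNA size, so the level of its mature microRNA was not measured. The hairpin of the gene, the only microRNA marker to pass the filter, is shown as RefSeq gives it (GRCm38.p6), with the arm that forms mmu-miR-219a-5p in capitals.

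Mir219a-2 hairpin: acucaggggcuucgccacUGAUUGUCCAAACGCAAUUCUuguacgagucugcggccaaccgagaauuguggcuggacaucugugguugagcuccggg

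The share of Mir219a-2 reads among the small RNAs other than tRNAs, mt-tRNAs and rRNAs was 0.0103% ± 0.00606 (SD, n = 6) in 5xFAD shRTP801 and 0.00995% ± 0.00828 (SD, n = 4) in WT shRTP801 mice. It differed by 0.04 on the log2 scale, with an adjusted p of 0.997 in limma. Mir219a-2 held 0 to 551 reads in 5xFAD shRTP801 and 3 to 676 in WT shRTP801 mice. Both means lay near the filter and near the 0.01% added before the log2, which makes differences smaller. Few reads were listed under the names of the brain-specific imprinted C/D snoRNAs. The table holds no gene named Snord115, and its Snord116 genes, Snord116l14 and Snord116l12, held at most 245 and 168 reads. Copies listed under other names would be missed, so that absence of these RNAs was not shown. The brain-enriched tRNA-Arg-TCT-4-1 was read in every mouse, as a precursor with 2 to 36 reads.

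Mature tRNAs made up more of the reads, and mt-tRNAs and snoRNAs less, in 5xFAD shRTP801 than in WT shRTP801 mice on average, but none of these differences passed the test over all mice. In 5xFAD mice mature tRNAs took from 47.1% of the reads (mouse 19) to 98.0% (mouse 7), with a median of 71.6%. In WT mice they took 98.0% (mouse 4), 46.9% (mouse 10), 41.6% (mouse 17) and 34.1% (mouse 21). The 3 WT mice other than mouse 4 lay below every 5xFAD mouse. The group means were 71.8% ± 19.4 (SD, n = 6) and 55.1% ± 29.1 (SD, n = 4), which is a log2 ratio of 0.38. The exact permutation test gave p = 0.271, or 0.543 after adjustment over 6 classes. Without mice 4 and 7 (5 mice against 3) the means were 66.6% and 40.8%, the groups did not overlap, and the exact p was 0.0536 (adjusted p = 0.107).

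The opposite order was found for the mt-tRNAs, which are transcribed from the mitochondrial genome and serve its own ribosomes. Their share ran from 0.0319% (mouse 7) to 27.7% (mouse 2) in 5xFAD mice, with a median of 14.3%. In WT mice it was 0.435% (mouse 4), 34.7%, 39.8% and 33.9%. Apart from mouse 4, every WT mouse exceeded every 5xFAD mouse. The means were 15.0% ± 10.9 (SD, n = 6) and 27.2% ± 18 (SD, n = 4), a log2 ratio of -0.86 with an exact permutation p of 0.195. Without mice 4 and 7 they were 18% and 36.1%, a log2 ratio of -1.01 with an exact p of 0.0357, which was 0.107 after adjustment.

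snoRNAs, which guide the modification of ribosomal and spliceosomal RNAs, followed the same order as mt-tRNAs. Their share ran from 0.107% (mouse 7) to 5.13% (mouse 19) in 5xFAD mice, with a median of 2.37%, and was 0.123% (mouse 4), 6.66%, 5.90% and 5.32% in WT mice. Again mouse 4 was the only WT mouse within the 5xFAD range. The means were 2.47% ± 1.89 (SD, n = 6) and 4.5% ± 2.97 (SD, n = 4), with an exact permutation p of 0.2, and 2.94% and 5.96% without mice 4 and 7 (exact p = 0.0357, adjusted p = 0.107). Leaving out WT mouse 4 alone gave unadjusted exact p-values of 0.0238 for mature tRNAs, 0.0238 for mt-tRNAs and 0.0357 for snoRNAs. With 5 mice against 3, the smallest p this test can give is 0.0179. A share is relative, so that these differences are not independent of each other.

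The remaining classes overlapped between genotypes. Precursor tRNAs held 0.543% ± 0.568 (SD, n = 6) of the reads in 5xFAD and 0.435% ± 0.369 (SD, n = 4) in WT mice. Both values were raised by the libraries that stood apart, with 1.69% in mouse 7 and 0.989% in mouse 4 against 0.236% to 0.463% in the others, and the exact permutation p was 0.776. Exact p-values were 0.748 for rRNA (means 5.13% and 6.23%) and 0.529 for the other small RNAs (5.02% and 6.50%).

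**Figure D1:**
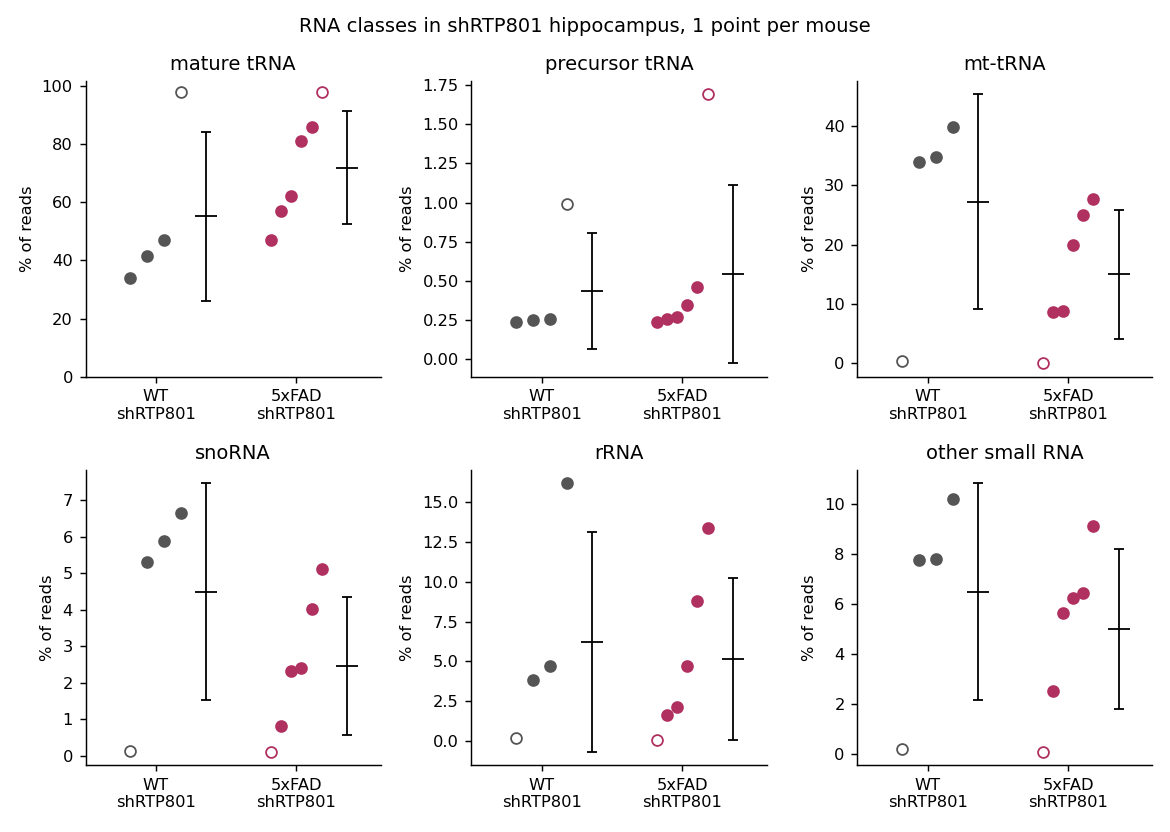
Share of all reads of a library (%, y axis) taken by each RNA class in 5xFAD shRTP801 (n = 6) and WT shRTP801 (n = 4) mice. Each point is a mouse, open circles are 5xFAD mouse 7 and WT mouse 4, and dashes with bars are means ± SD. Apart from the open circles, mature tRNA shares were higher and mt-tRNA and snoRNA shares lower in every 5xFAD mouse than in every WT mouse.

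The same shares were set against those of the shCT mice, where the mean log2 difference between genotypes pointed the other way. Without the 3 libraries that stood apart, the mean log2 difference between 5xFAD and WT mice under shRTP801 was 0.68 for mature tRNAs, -1.17 for mt-tRNAs and -1.25 for snoRNAs, and under shCT it was -0.49, 0.77 and 1.34. The difference between both contrasts, the interaction of genotype and treatment, was then 1.17 for mature tRNAs (adjusted p = 0.0490), -1.95 for mt-tRNAs (adjusted p = 0.0276) and -2.59 for snoRNAs (adjusted p = 0.0276), by exact permutation of the treatment within each genotype. The null of this permutation is no effect of the treatment in either genotype, not merely equal genotype differences under both hairpins. With all mice no class passed the test. The interaction was 1.09 for mature tRNAs (exact p = 0.0452, adjusted p = 0.271), -4.37 for mt-tRNAs (exact p = 0.314) and -3.31 for snoRNAs (exact p = 0.180). These calls thus depended on leaving out libraries chosen on the shares themselves.

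Intron-containing pre-tRNAs, whose exons the tRNA-LC joins once the intron is excised, did not differ detectably between genotypes when RTP801 was silenced. The 20 intron-containing loci of the table belong to tRNA-Arg-TCT, tRNA-Ile-TAT, tRNA-Leu-CAA and tRNA-Tyr-GTA. Together they took 0.198% (mouse 7) to 1.77% (mouse 19) of precursor reads in 5xFAD mice, with a median of 1.32%. In WT mice they took 0.181% (mouse 4), 1.57% (mouse 10), 1.08% (mouse 17) and 1.33% (mouse 21). Both groups covered almost the same range, and the lowest value of each was that of its library of 98.0% mature reads. The means were 1.08% ± 0.673 (SD, n = 6) and 1.04% ± 0.605 (SD, n = 4), a log2 ratio of 0.05 with an exact permutation p of 0.919, and 1.25% and 1.32% without mice 4 and 7 (exact p = 0.911). Under shCT the means were 3.16% ± 0.650 (SD, n = 3) in 5xFAD and 1.03% ± 1.10 (SD, n = 5) in WT mice. The interaction had an exact permutation p of 0.110 and an adjusted p of 0.212, and an adjusted p of 0.132 without the 3 libraries. The genotype difference under shRTP801 was thus not shown to differ from that under shCT. Under shCT, mature tRNAs took on average 43.9% of all reads in 5xFAD and 71.5% in WT mice. The part of this library composition in the intron-containing share was not tested.

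The 4 intron families gave the same picture one by one. pre-tRNA-Tyr-GTA, whose loci all carry an intron, took 0.0822% to 0.399% of precursor reads in 5xFAD mice (median 0.311%) and 0.119%, 0.384%, 0.259% and 0.352% in WT mice. The means were 0.260% ± 0.136 (SD, n = 6) and 0.278% ± 0.119 (SD, n = 4), with an exact permutation p of 0.805. pre-tRNA-Ile-TAT took 0.475% ± 0.367 (SD, n = 6) and 0.426% ± 0.332 (SD, n = 4), with an exact p of 0.848. pre-tRNA-Leu-CAA took 0.307% ± 0.274 (SD, n = 6) and 0.3% ± 0.220 (SD, n = 4), with an exact p of 0.962. pre-tRNA-Arg-TCT took 0.0471% ± 0.0335 (SD, n = 6) and 0.0531% ± 0.0378 (SD, n = 4), with an exact p of 0.819. This family value includes the locus Arg-TCT-4-1, which has no intron. In each of the 4 families the adjusted p was 0.962 and the genotypes overlapped. Few reads stand behind these values, from 10 to 73 per mouse for pre-tRNA-Arg-TCT and from 90 to 325 for pre-tRNA-Tyr-GTA.

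Absence of a difference was not shown, since the 95% confidence intervals of the log2 difference in limma were wide. They ran from -1.41 to 0.997 for pre-tRNA-Tyr-GTA, from -1.83 to 2.30 for pre-tRNA-Ile-TAT, from -1.99 to 1.71 for pre-tRNA-Arg-TCT and from -2.58 to 2.95 for pre-tRNA-Leu-CAA. The interaction of genotype and treatment was lowest in p for the share of pre-tRNA-Tyr-GTA, with an exact permutation p of 0.0390 and an adjusted p of 0.195.

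**Figure D2:**
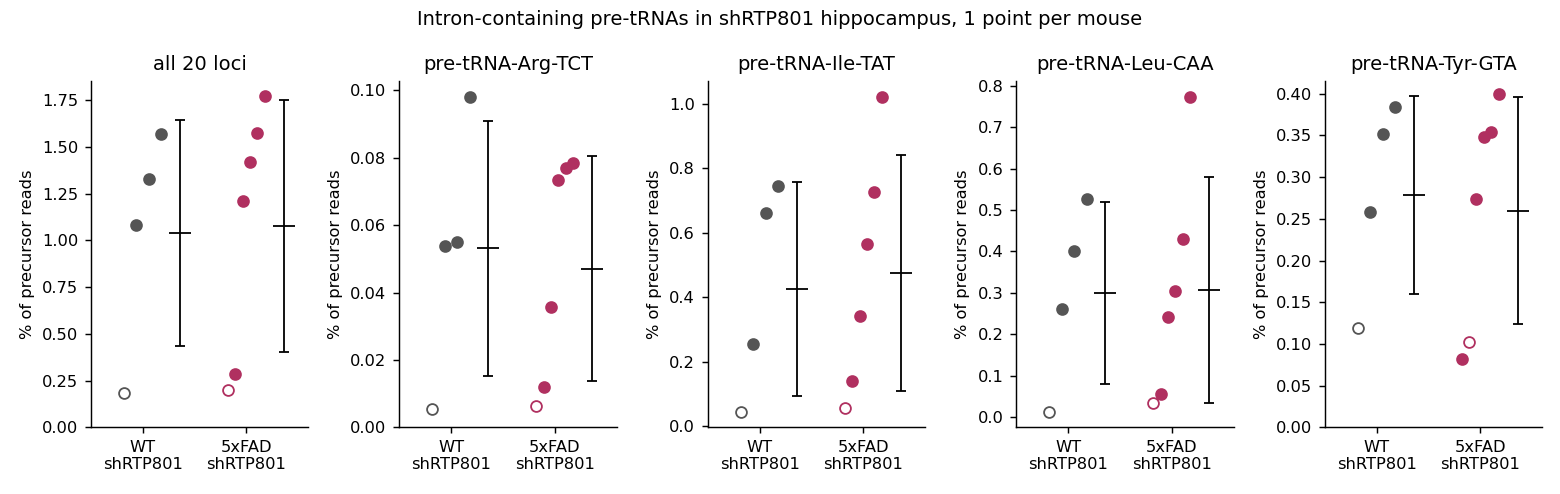
Share of precursor reads (%, y axis) from all intron-containing loci and from each of the 4 intron families in 5xFAD shRTP801 (n = 6) and WT shRTP801 (n = 4) mice. Points are mice, open circles are 5xFAD mouse 7 and WT mouse 4, and dashes with bars are means ± SD. The pre-tRNA-Arg-TCT panel includes the intron-free locus Arg-TCT-4-1. The groups overlap in each panel, with means of 1.08% and 1.04% for all loci together.

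Among the 20 intron-containing loci, 11 were higher and 9 lower in 5xFAD shRTP801 mice, with a median log2 difference of 0.12, beside -0.03 over all 333 pre-tRNA loci tested, of which 47.4% were higher. None had an unadjusted p under 0.05 in limma, beside 2.10% of all loci. The 4 loci with the smallest p were pre-tRNA-Tyr-GTA-1-5, Tyr-GTA-4-1, Tyr-GTA-1-4 and Ile-TAT-2-2. pre-tRNA-Tyr-GTA-1-5 held 0 to 15 reads in 5xFAD and 2 to 17 reads in WT mice. The log2 difference of -1.50 ± 0.733 (SE) had an adjusted p of 0.991 by limma. Reads of pre-tRNA-Tyr-GTA-4-1 amounted to 1 in 5xFAD mouse 7 and to 0 in the other 5xFAD mice, against at most 3 reads in WT mice, which is too few for a comparison. Of the 19 loci tested without the 3 libraries, 5 were higher and the median was -0.45, beside 167 of all 331 loci and 0.005. Of these 19, 1 had an unadjusted p under 0.05 in limma, beside 24 of the 331. The interaction, the genotype difference under shRTP801 minus that under shCT, was below 0 for 17 of the 20 loci, with a median of -2.04 on the log2 scale, beside 168 of all 333 loci and a median of -0.01. Without the 3 libraries it was below 0 for 17 of 19 loci with a median of -2.19, beside 166 of 331 loci. With all mice 3 of the 20 loci, Tyr-GTA-3-1, Tyr-GTA-2-1 and Tyr-GTA-1-4 (the first and second named after their values were seen), had an unadjusted p under 0.05 for the interaction in limma, beside 15.3% of all loci, and none passed the adjusted threshold. The intron-free brain-specific pre-tRNA-Arg-TCT-4-1 took 0.0112% ± 0.0107 (SD, n = 6) and 0.0195% ± 0.0203 (SD, n = 4) of precursor reads, a log2 difference of -0.65 ± 1.01 (SE).

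Over all precursor tRNAs, no locus or family passed an adjusted p of 0.05 in limma, edgeR or DESeq2. At an unadjusted p under 0.05, limma gave 7 of 333 loci (2.10%), edgeR 9 and DESeq2 14. Of the 48 families, limma gave 3 (6.25%), edgeR 1 and DESeq2 2. The 3 families were the proline pre-tRNAs, all lower in 5xFAD shRTP801 mice. These 3 isoacceptors share most of their sequence and may share reads, so that they do not count as separate observations. pre-tRNA-Pro-TGG took 0.0385% to 0.117% of precursor reads in 5xFAD mice (median 0.0812%) and 0.107%, 0.106%, 0.184% and 0.122% in WT mice. Of the 6 5xFAD mice, only mouse 7 reached into the WT range. Its log2 difference was -0.69 ± 0.297 (SE), with an adjusted p of 0.658 in limma. The differences were -0.78 for pre-tRNA-Pro-CGG and -0.81 for pre-tRNA-Pro-AGG, each with the same adjusted p. pre-tRNA-Pro-CGG was lowest in 5xFAD mouse 14 (0.0369%) and pre-tRNA-Pro-AGG highest in WT mouse 17 (0.256%), each far from the rest of its group. All 3 differences were larger without the 3 libraries, from -0.88 to -1.06, and had an adjusted p of 0.332.

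On the higher side, pre-tRNA-Ala-TGC came first. It took 1.25% to 4.14% of precursor reads in 5xFAD mice (median 1.35%) and 1.49%, 1.26%, 0.956% and 0.742% in WT mice. The groups overlapped through WT mice 4 and 10. The log2 difference was 0.72 ± 0.350 (SE), with an unadjusted p of 0.0549 and an adjusted p of 0.658 in limma. pre-tRNA-Met-CAT, the family of elongator methionine tRNAs, took 2.86% to 16.6% in 5xFAD mice (median 6.87%) and 2.57%, 5.85%, 6.33% and 5.69% in WT mice. Its log2 difference was 0.56 ± 0.403 (SE), and 0.86 ± 0.388 (SE) at the single locus pre-tRNA-Met-CAT-1-1, whose unadjusted p of 0.0391 in limma became 0.991 after adjustment. The initiator methionine tRNA, a family of its own in the table that is named here after its values were seen, took 1.32% ± 0.245 (SD, n = 6) and 1.45% ± 0.145 (SD, n = 4) of precursor reads as pre-tRNA-iMet-CAT, a log2 difference of -0.15 ± 0.257 (SE). pre-tRNA-Gln-TTG took 0.985% ± 0.608 (SD, n = 6) and 0.540% ± 0.124 (SD, n = 4), a log2 difference of 0.64 ± 0.441 (SE).

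Asp-GTC, the family with the most precursor reads in WT shRTP801 mice, took 7.16% to 36.5% of precursor reads in 5xFAD mice (median 18.7%). In WT mice it took 9.38% (mouse 4), 32.6%, 37.5% and 33.0%. The means were 20.5% ± 10.2 (SD, n = 6) and 28.1% ± 12.7 (SD, n = 4), a log2 difference of -0.44 ± 0.626 (SE) with an adjusted p of 0.966 in limma. pre-tRNA-SeC-TCA, which carries selenocysteine, took 0.00345% to 0.329% in 5xFAD (median 0.103%) and 0.00334%, 0.600%, 0.489% and 0.231% in WT mice. The log2 difference was -0.59 ± 1.54 (SE), and each group was lowest in its library of 98.0% mature reads. pre-tRNA-Ile-AAT and pre-tRNA-Phe-GAA, which have no intron, differed by 0.49 ± 0.387 (SE) and 0.30 ± 0.505 (SE).

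**Figure D3:**
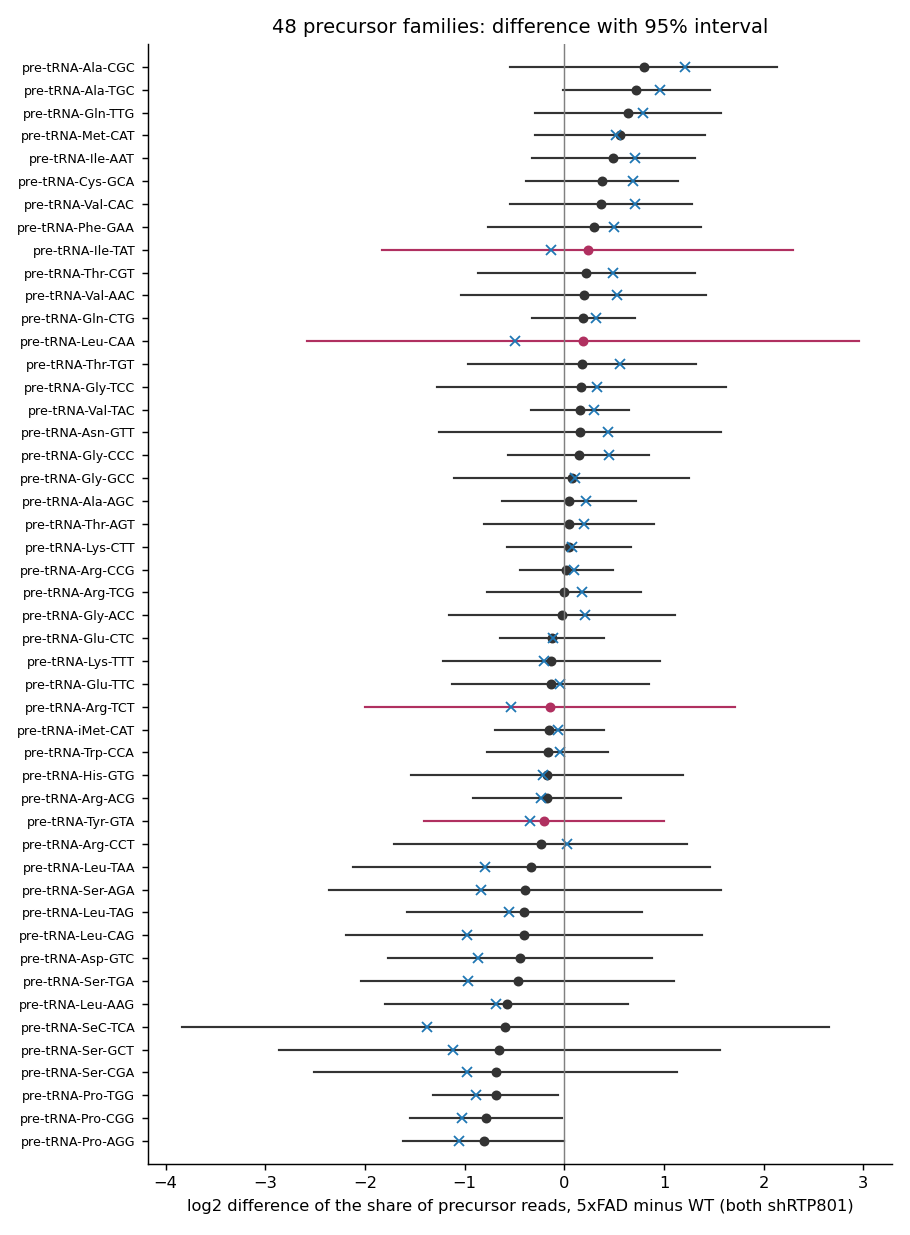
Log2 difference of 5xFAD shRTP801 (n = 6) over WT shRTP801 (n = 4) mice (x axis) in the share of precursor reads of each of the 48 pre-tRNA families (y axis), from limma. Dots with bars are the differences over all mice with their 95% confidence intervals, crimson marks the 4 intron families, and blue crosses are the differences without the 3 libraries that stood apart. The intervals of the 3 proline families lie just below 0, and no family passed the adjusted threshold.

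Mature tRNAs were measured with smaller errors than precursors, and neither their isodecoders (mature tRNAs with the same anticodon that differ in sequence elsewhere) nor their families passed an adjusted p of 0.05 in limma, edgeR or DESeq2. At an unadjusted p under 0.05, limma gave 1 of 186 isodecoders (0.538%), edgeR 1 and DESeq2 3. Of the 49 families, limma and edgeR gave 0 (0%) and DESeq2 2. The single isodecoder in limma was tRNA-Asp-GTC-3, a minor aspartate isodecoder with 133 to 1187 reads per mouse. It took 0.000807% to 0.00614% of mature reads in 5xFAD mice (median 0.00296%) and 0.00395%, 0.0120%, 0.00536% and 0.00610% in WT mice. Its log2 difference was -0.89 ± 0.417 (SE), with an adjusted p of 0.986 in limma.

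The whole Asp-GTC family pointed the same way. It took 1.51% to 13.8% of mature reads in 5xFAD mice (median 7.57%) and 7.12% (mouse 4), 15.5%, 20.9% and 15.1% in WT mice. Without mouse 4, all WT mice lay above all 5xFAD mice. The means were 8.11% ± 4.44 (SD, n = 6) and 14.7% ± 5.68 (SD, n = 4), a log2 difference of -1.04 ± 0.668 (SE) with an adjusted p of 0.858 in limma. When the 3 libraries were left out, the difference was -1.52 ± 0.712 (SE), with an adjusted p of 0.575. The mature Asp-GTC share and that of its precursors were both higher in WT mice 10, 17 and 21, which had the highest mt-tRNA and snoRNA shares, than in WT mouse 4. With the log2 snoRNA share as a covariate in limma, no mature family passed the adjusted threshold. None passed without it either, so that this count does not bear on the part of the class shares. That part was not tested.

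The most abundant mature family, Gly-CCC, took 16.5% to 43.1% of mature reads in 5xFAD mice (median 30.0%) and 24.8%, 22.9%, 14.4% and 24.5% in WT mice. The means were 29.1% ± 9.72 (SD, n = 6) and 21.6% ± 4.89 (SD, n = 4), a log2 difference of 0.39 ± 0.335 (SE). The alanine families did not share a direction. tRNA-Ala-AGC took 0.127% ± 0.0403 (SD, n = 6) and 0.190% ± 0.0725 (SD, n = 4), a log2 difference of -0.55 ± 0.268 (SE). tRNA-Ala-TGC took 1.40% ± 0.509 (SD, n = 6) and 1.04% ± 0.207 (SD, n = 4), a difference of 0.39 ± 0.257 (SE), and tRNA-Ala-CGC differed by 0.34 ± 0.240 (SE). All 3 had an adjusted p of 0.858 in limma.

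Mature tRNA-Ile-AAT was among the closest between genotypes, with 0.363% ± 0.0704 (SD, n = 6) and 0.387% ± 0.117 (SD, n = 4), a log2 difference of -0.07 ± 0.230 (SE). For mature tRNA-Ser-CGA, a single mouse set the mean. Its share was 0.0115% to 0.135% in 5xFAD mice (median 0.0263%) and 0.0676%, 0.0367%, 0.690% (mouse 17) and 0.0306% in WT mice, so that 3 of 4 WT mice lay within the 5xFAD range. The 4 intron families had no common direction as mature tRNAs. Of their 15 isodecoders tested, 8 were higher and 7 lower in 5xFAD shRTP801 mice, with a median log2 difference of 0.07 beside -0.12 over all 186, of which 33.9% were higher, and none had an unadjusted p under 0.05 in limma. The precision differed between layers. The 95% confidence interval of the log2 difference lay within a 2-fold change for 22 of 49 mature families (44.9%), 70 of 186 isodecoders (37.6%), 12 of 48 precursor families (25.0%) and 42 of 333 precursor loci (12.6%).

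The reads of mature tRNAs were sorted by the table into whole tRNAs, 5′ parts, 3′ parts and other parts. The split was much the same in both genotypes. 3′ parts took 73.8% ± 13.1 (SD, n = 6) of mature reads in 5xFAD and 71.6% ± 15.1 (SD, n = 4) in WT mice, 5′ parts 10.1% ± 5.90 and 12.8% ± 6.52, whole tRNAs 0.951% ± 0.830 and 1.22% ± 0.830, and other parts 15.2% ± 8.76 and 14.4% ± 8.46. Exact permutation p-values ran from 0.481 to 0.890. Since the RNA was hydrolysed before sequencing, these parts do not show fragments that existed in the tissue.

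**Figure D4:**
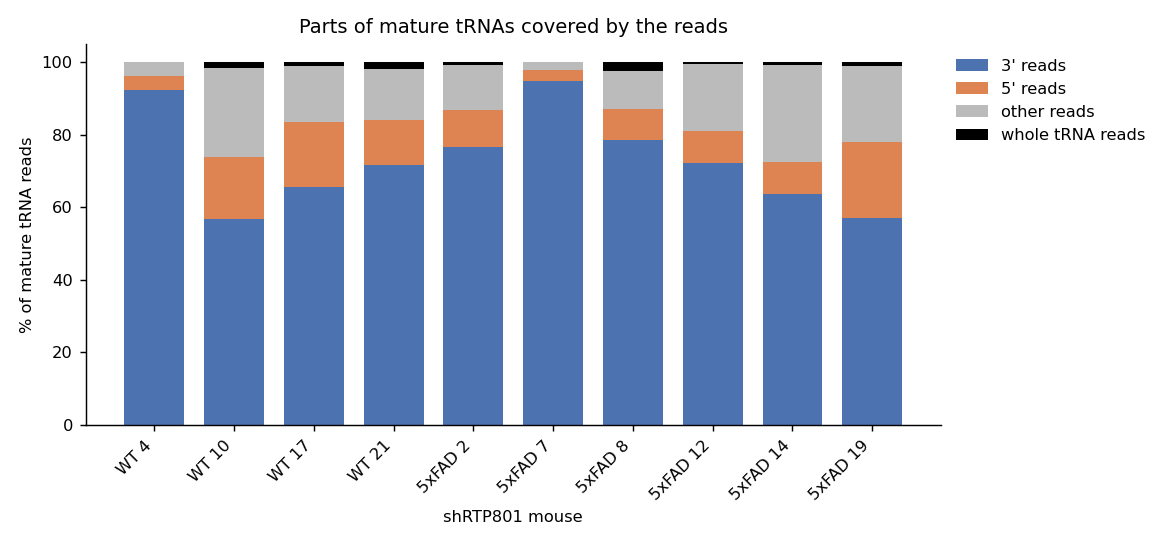
Share of mature tRNA reads (%, y axis) that were whole tRNAs, 5′ parts, 3′ parts or other parts in 5xFAD shRTP801 (n = 6) and WT shRTP801 (n = 4) mice. Each bar is a mouse, stacked by read type and labelled with its genotype and mouse number. The genotypes overlap in each read type.

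For single isodecoders, the share of each read type was compared as the log2 odds against the other reads of that isodecoder. None of 695 passed an adjusted p of 0.05 in limma, and 9 (1.29%) had an unadjusted p under 0.05, 6 of them lower in 5xFAD mice (0.863%). The 6 were all 5′ parts, of tRNA-Ala-TGC-1, Gly-CCC-1, Pro-AGG-1, Pro-TGG-2, SeC-TCA-1 and Val-AAC-4. The best covered was tRNA-Gly-CCC-1, with 28999 to 88788 5′ reads per mouse. Its 5′ parts took 0.589% to 1.68% of its reads in 5xFAD mice (median 1.04%) and 1.01% (mouse 4), 3.96%, 3.19% and 2.19% in WT mice. Apart from mouse 4, all WT mice lay above all 5xFAD mice. The log2 difference in odds was -1.22 ± 0.452 (SE), with an unadjusted p of 0.0151 and an adjusted p of 0.998 in limma.

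For tRNA-Pro-TGG-2, 5′ parts took 0.439% to 1.18% in 5xFAD mice (median 0.478%) and 1.26%, 1.48%, 1.06% and 0.761% in WT mice, and the highest 5xFAD value was that of mouse 7. The groups did not overlap for the 5′ parts of tRNA-SeC-TCA-1, with means of 0.936% and 1.80%, of tRNA-Pro-CGG-1 (0.891% and 1.5%) and of tRNA-Pro-TGG-1 (0.227% and 0.393%), all lower in 5xFAD mice, and 0.432% of all read types were of this kind. On the higher side the groups did not overlap for tRNA-Ala-AGC-3 5′ parts alone (0.144%), which held 1 or 2 reads in each 5xFAD mouse and 0 in each WT mouse. The 3′ parts of tRNA-Phe-GAA-1 and tRNA-Ala-TGC-1 exceeded 99.7% of reads in every mouse.

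Among mt-tRNAs, given as shares of mt-tRNA reads, 1 of 21 had an unadjusted p under 0.05 in limma (4.76%), as in edgeR and DESeq2, and none passed the adjusted threshold. This was mt-Tc, the mitochondrial cysteine tRNA encoded on the light strand. It took 1.33% to 6.39% in 5xFAD mice (median 3.17%) and 1.75%, 1.58%, 0.708% and 0.973% in WT mice. The lowest 5xFAD values overlapped with those of WT mice 4 and 10. The log2 difference was 1.21 ± 0.514 (SE), with an adjusted p of 0.620 in limma. The threonine mt-tRNA mt-Tt took 6.36% ± 2.63 (SD, n = 6) and 3.72% ± 2.07 (SD, n = 4), where WT mouse 4 was at 6.79% and the other WT mice at 2.33% to 2.99%. mt-Tk, for lysine, took 1.85% ± 1.80 (SD, n = 6) and 0.695% ± 0.197 (SD, n = 4). The most abundant, mt-Th for histidine, took 47.6% ± 11 (SD, n = 6) and 54.9% ± 8.11 (SD, n = 4), a log2 difference of -0.23 ± 0.258 (SE). mt-Tv, for valine, differed by -0.27 ± 0.291 (SE).

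Of the light-strand mt-tRNAs, 5 of 7 were higher in 5xFAD shRTP801 mice, and of the heavy-strand ones 11 of 14, with median log2 differences of 0.44 and 0.24 (76.2% of all 21 were higher). This direction belongs to the share within mt-tRNA reads. On the deposited scale all 21 were lower, and after centring each library on its median 5 of the 21 were higher.

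Among the other small RNAs, C/D box snoRNAs were lower in most cases in 5xFAD shRTP801 mice, and the library of 5xFAD mouse 7 weighed on this. None of 312 genes passed an adjusted p of 0.05 in limma, edgeR or DESeq2. At an unadjusted p under 0.05 limma gave 4 (1.28%), edgeR 15 and DESeq2 35. The 4 in limma were Snord14c, Snord14d, Gm22357 and Gm24136, all lower in 5xFAD mice. Snord14c and Snord14d are close copies of the U14 snoRNA, needed for the processing of 18S rRNA, and lie in introns of Hspa8, so that they may share reads and host transcript.

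Snord14c took 0.0128% to 0.130% of the small RNA reads in 5xFAD mice (median 0.0367%) and 0.0895% (mouse 4), 0.163%, 0.233% and 0.146% in WT mice. A single 5xFAD mouse reached into the WT range. Its log2 difference was -1.66 ± 0.562 (SE), with an unadjusted p of 0.00842 and an adjusted p of 0.983 in limma. Snord14d took 0.0133% to 0.123% in 5xFAD mice (median 0.0341%, highest in mouse 19) and 0.0787%, 0.145%, 0.224% and 0.138% in WT mice, a difference of -1.63 ± 0.553 (SE). These differences were -2.01 and -1.93 without the 3 libraries, each with an adjusted p of 0.0830. The groups did not overlap for Gm22357, with 0.0125% ± 0.00706 (SD, n = 6) and 0.0449% ± 0.0151 (SD, n = 4), and for Gm25894, with 0.241% ± 0.109 and 0.457% ± 0.0884, which were 0.641% of the genes tested. Neither was matched to a gene type.

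Of the 61 C/D box snoRNA genes named Snord (outside the Snord115 and Snord116 clusters) that passed the filter, of 80 in the table, 52 were lower in 5xFAD shRTP801 mice, with a median log2 difference of -0.53. Over all 312 genes 157 were lower and the others higher (49.7%), with a median of 0.00. Only 2 of the 61 had an unadjusted p under 0.05, Snord14c and Snord14d. Without 5xFAD mouse 7, which held the fewest snoRNA reads (20144), 35 of the 61 were lower and the median was -0.22. Without WT mouse 4, 54 were lower and the median was -0.96. Without all 3 libraries, 49 of the 61 were lower, with a median of -0.58 beside 0.20 over the 306 genes tested both ways. On the deposited scale all 61 were lower. The snoRNA share of all reads, which orders the mice in the same way, is given above. With the log2 of this share as a covariate in limma, no small RNA gene passed the adjusted threshold. None passed without it either, so that this count does not bear on the Snord pattern. The part of the snoRNA share in this pattern was not tested.

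**Figure D5:**
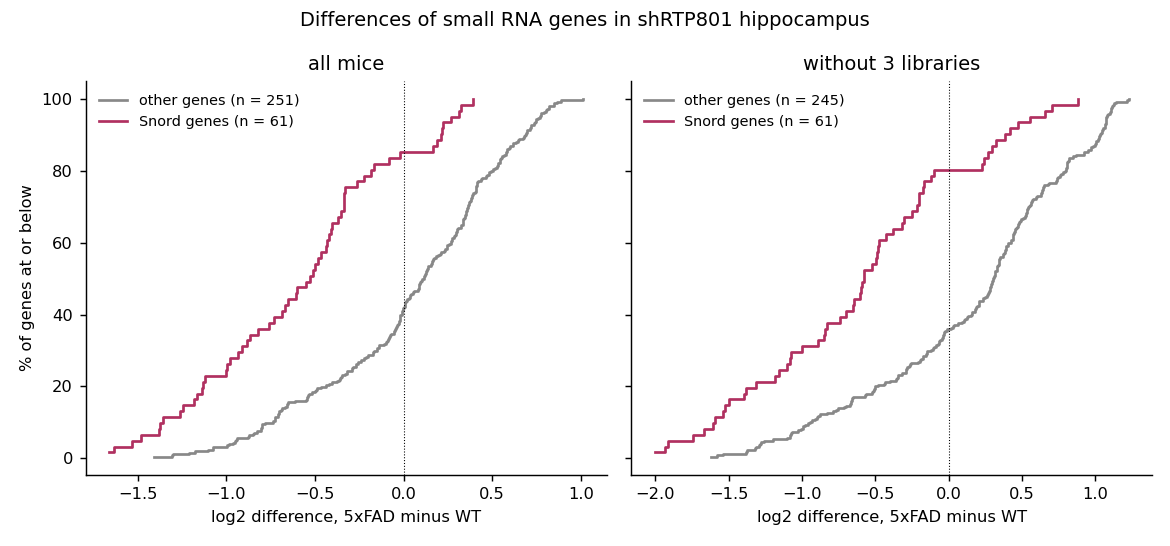
Cumulative percentage of genes (y axis) against the log2 difference of 5xFAD shRTP801 (n = 6) over WT shRTP801 (n = 4) mice in the share of small RNA reads (x axis), for the 61 Snord genes and the 251 other small RNA genes tested, with all mice and without the 3 libraries that stood apart. The Snord curve lies to the left, with a median of -0.53 against 0.12 for the other genes.

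Genes of small nuclear RNAs, which build the spliceosome, showed the opposite order on this scale. Of 125 tested, 106 were higher in 5xFAD shRTP801 mice, with a median log2 difference of 0.37. Of the 125, 1 had an unadjusted p under 0.05 in limma, beside 1.28% of all 312 genes. That gene was lower in 5xFAD mice. Many of the 125 are annotated copies of a few snRNAs whose reads cannot be told apart. On the deposited scale 54 of the 125 were higher and the median was -0.14, so that the direction depended on the scale. The genes with the smallest p on the higher side, Gm22997, Gm23453 and Gm22129, were all of this kind, with log2 differences of 0.85, 0.81 and 1.01 and an adjusted p of 0.983 in limma. Few members of the remaining groups passed the filter. The H/ACA snoRNAs (Snora) gave 3 genes of 39, of which 2 were higher. The Y RNAs Rny1 and Rny3 differed by -0.24 in the median, and of 12 microRNA genes tested, 7 were higher, with a median of 0.07 and none at an unadjusted p under 0.05.

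Whether the genotype difference under shRTP801 differed from that under shCT was tested for each gene and tRNA by the interaction term of the same fit. With all mice, none passed an adjusted p of 0.05 in limma in any layer. Unadjusted p-values under 0.05 were found for 51 of 333 precursor loci (15.3%), 10 of 48 precursor families (20.8%), 18 of 186 mature isodecoders (9.68%), 4 of 49 mature families (8.16%), 2 of 21 mt-tRNAs (9.52%), 12 of 312 small RNA genes (3.85%) and 35 of 695 read types (5.04%). edgeR called 1 precursor locus, pre-tRNA-Ser-TGA-2-2, and 2 mt-tRNAs, mt-Tv and mt-Th, and none in the other layers it was run on. These mt-tRNAs had interaction terms of -0.37 and -0.41 in limma.

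Among the named precursors, the interaction was -2.12 ± 0.945 (SE) for Asp-GTC and -2.23 ± 0.859 (SE) for Tyr-GTA, each with an adjusted p of 0.227 in limma, and 1.51 ± 0.529 (SE) for Ala-TGC with the same adjusted p. Among mature families it was -2.91 ± 1.01 (SE) for Asp-GTC, with an adjusted p of 0.411. Without the 3 libraries, 5 of 321 small RNA genes (1.56%) had an adjusted p under 0.05 in limma. They were Snord35b (-3.35), Snord32a (-3.28), Snord111 (-3.31), Snord14c (-3.08) and Snord14d (-2.95), all C/D box snoRNAs. Each was lower in 5xFAD than in WT mice under shRTP801 and higher under shCT. Snord111, for example, took 0% to 0.0501% in 5xFAD shRTP801 mice (median 0.0295%) and 0.00771% (mouse 4), 0.0845%, 0.195% and 0.0821% in WT shRTP801 mice. Under shCT its means were 0.107% ± 0.0413 (SD, n = 3) in 5xFAD and 0.0255% ± 0.0230 (SD, n = 5) in WT mice. With all mice its interaction was the same in size (-3.31 ± 1.03, SE) but had an adjusted p of 0.511 in limma. edgeR without the 3 libraries, and without WT shCT mouse 15, called interactions for 35 precursor loci, 5 precursor families and 23 small RNA genes. Whether intron-containing loci are among these is not given here. In limma without the 3 libraries no precursor locus or family passed.

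Fitting all 1598 entries of the table with enough signal together, on the deposited scale, gave no entry at an adjusted p under 0.05 in limma, edgeR or DESeq2. At an unadjusted p under 0.05, limma gave 1 entry (0.0626%), edgeR 10 and DESeq2 23. The entry in limma was the class of other parts of tRNA-Met-CAT-1 reads, higher in 5xFAD shRTP801 mice by 1.25 on the log2 scale, with an adjusted p of 0.9995 in limma. On this scale 628 of the 1598 entries were higher in 5xFAD mice (39.3%), and the 95% confidence interval lay within a 2-fold change for 8 of them (0.501%).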

How the data were processed

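Per the labels, the authors isolated small RNA from hippocampi, cut the tRNA-sized window from a gel, hydrolysed it and sequenced it by Hydro-tRNA-seq. The authors counted reads with tRAX (genome build mm39, per the submitters' processing notes, with aligner and versions not given in the sources used here). The deposited values are a normalized signal, read counts per feature divided by a size factor of the library. Dividing each value by the smallest non-zero one of its library gave whole numbers (within 0.01) for 100% of the values, and these were used as reads. Reads of 324 near-identical gene copies (within 5%) were counted once, and libraries held 18126375 to 34488923 reads. The table holds 3574 entries, among them 213 mature isodecoders, 335 pre-tRNA loci, 22 mt-tRNAs and 1482 other genes, of which 1209 were matched to a symbol or synonym. tRNAs are named as in the table, without positions.

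Groups came from the labels, with 1 library per mouse, and p-values measure the spread between mice. Shares were compared by two-sided exact permutation of the difference of group means, whose smallest p is 0.00476 for 6 mice against 4. Interactions of shares were tested by exact permutation of the treatment within genotype, whose null is no effect of the treatment in either genotype. Features were fitted in R 4.3.3 with limma 3.58.1, with 4 group means over all 18 mice, on the log2 of the percentage of their class plus 0.001% (tRNAs), 0.1% (mt-tRNAs) or 0.01% (other small RNAs), after leaving out features with a mean below the same value. Read types were fitted as log2 odds with 1 normalized count added (isodecoders with a mean of at least 100), and the whole table as log2 of the deposited value plus 1 (mean of at least 10). p-values were adjusted by Benjamini-Hochberg per layer, with a threshold of 0.05. The alternatives were other pseudocounts and filters, only the shRTP801 mice, a mean-variance trend, the snoRNA share as a covariate, deposited or centred values, leaving out each mouse, and count tests on the recovered reads with edgeR 4.0.16 and DESeq2 1.42.0 (without WT shCT mouse 15, whose step is too close to 1 to tell from rounding). Leaving out the 3 libraries with the highest mature shares was added after the data were seen. The fit was tested on simulated data.

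Named features are the intron families and, by p, the leading intron-containing loci, the 3 features with the smallest p in each direction and layer, the precursors and mature tRNAs that the study names for the shCT mice, intron-free controls and lists of RNA classes and cell type markers. Gly-CCC, the features whose groups did not overlap, the remaining features of small counts of calls and the Snord genes of the interaction were named after their values were seen. The members and lists were chosen with earlier results of these data known. Reads may be shared between near-identical tRNA, snRNA or snoRNA genes.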

Additional observations from a re-analysis of the deposited data

Results flagged for a closer look

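By Dixon's ratio of gap to range, a single mouse lay far from the rest of its group in 15 of the sets of values scanned (10.4%). The limit used passes about 1 in 20 sets of independent, normally distributed values. These sets hold the same mice and untransformed shares, so that the percentage is no test against chance. In 2 of the 15 sets no mouse of the group held more than 3 reads, which is too few to set a mouse apart. Leaving out the 4 such sets leaves 13 of 140 (9.29%). Mice 7 and 4, which stood apart in the report, account for several of them. The precursor share of all reads was 1.69% in 5xFAD shRTP801 mouse 7 and 0.989% in WT shRTP801 mouse 4, far above their groups. WT mouse 4 was also far from its group in the mt-tRNA share (0.435% of reads), pre-tRNA-Met-CAT (2.57% of precursor reads), pre-tRNA-Ile-AAT (1.02%) and mt-Tt (6.79% of mt-tRNA reads). 5xFAD mouse 7 was far above its group in 5′ parts of tRNA-Pro-TGG-2 (1.18% of its reads) and in pre-tRNA-Tyr-GTA-4-1 (0.000314% of precursor reads, a single read where the others held 0).

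WT mouse 17 was the highest of its group, by a wide gap, in mature tRNA-Ser-CGA (0.690% of mature reads), mature tRNA-Ala-TGC-4 (0.0651%) and pre-tRNA-Pro-AGG (0.256% of precursor reads). In the 5xFAD group, mouse 2 stood apart in pre-tRNA-Ala-AGC-1-1 (0.00775% of precursor reads), mouse 14 in pre-tRNA-Pro-CGG (0.0369%), and mouse 19 in Snord14d (0.123% of small RNA reads) and in 5′ parts of tRNA-Ala-AGC-3 (0.0328% of its reads), a value that rests on at most 2 reads per mouse.

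With all mice, the test of the interaction passed the adjusted threshold for none of the class shares and for no feature in limma, while edgeR called the precursor locus and the 2 mt-tRNAs named in the report. Leaving out the 3 libraries that stood apart, further interactions passed. The interaction on the log2 scale was then 1.17 for the mature tRNA share, -1.95 for the mt-tRNA share and -2.59 for the snoRNA share, each by exact permutation. In limma it was -3.35 for Snord35b, -3.28 for Snord32a, -3.31 for Snord111, -3.08 for Snord14c and -2.95 for Snord14d. edgeR without the 3 libraries called 35 precursor loci, 5 precursor families and 23 small RNA genes. These libraries were chosen on the class shares themselves.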

How the results depend on the processing

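The number of features that differed between genotypes under shRTP801 at an adjusted p under 0.05 was 0 in each of the 8 layers and under each alternative run. No paired analysis was possible because the groups share no mouse numbers. Over the tests of single values and counts, 1786 alternatives kept their direction and side of the threshold, and 85 did not. For these, the cause was not tested. Interactions of the class shares that passed the test without the 3 libraries are given above. The number of interactions called was not 0 for precursor loci in edgeR (1), for mt-tRNAs in edgeR (2), for small RNA genes in limma without the 3 libraries (5), and in edgeR without them for precursor loci (35), precursor families (5) and small RNA genes (23). Leaving out each mouse in turn gave 0 to 8 precursor loci (8 without WT shRTP801 mouse 4, 1 without WT shCT mouse 15). Leaving out the 3 libraries, the log2 ratio was -1.01 for the mt-tRNA share and -1.02 for the snoRNA share (unadjusted exact p under the threshold), -0.0794 for all intron-containing loci, -0.13 for the share of pre-tRNA-Leu-CAA and -0.00826 for other read parts, which was -0.00732 on log2 shares of all mice. In limma without them, pre-tRNA-Ile-TAT was at -0.13 and pre-tRNA-Leu-CAA at -0.50. pre-tRNA-Leu-CAA was at -0.0305 in edgeR, -0.0458 in DESeq2 and -0.20 in edgeR without the 3 libraries, where pre-tRNA-Ile-TAT was at -0.0334. pre-tRNA-Arg-TCT was at 0.15 with the snoRNA share as a covariate and 0.0138 after centring. Mature tRNA-Ile-AAT was at 0.00312 in DESeq2, 0.0526 in edgeR without the 3 libraries and 0.19 on the deposited scale, where mt-Tc was at -0.00230, mt-Tt at -0.49 and mt-Tk at -0.33. Differences of medians gave log2 ratios of 0.00287 (pre-tRNA-Arg-TCT), -0.0186 (Ile-TAT), -0.28 (Leu-CAA) and 0.0262 (Tyr-GTA), and percentages of all reads gave 0.0511 (Arg-TCT) and 0.104 (Tyr-GTA).

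Leaving out each of the 10 shRTP801 mice in turn moved the log2 ratio from 0.21 to 0.82 for mature tRNAs, from -1.27 to -0.60 for mt-tRNAs, from -1.27 to -0.61 for snoRNAs, from -0.47 to 1.12 for precursors and from -0.84 to 0.82 for rRNA. It ran from -0.0525 to 0.19 for 3′ parts, from -0.24 to 0.46 for other parts and from -0.92 to 0.00879 for whole tRNAs. For the intron-containing share it ran from -0.30 to 0.32 in all, from -0.49 to 0.45 for Leu-CAA, from -0.55 to 0.30 for Arg-TCT, from -0.35 to 0.10 for Tyr-GTA and from -0.22 to 0.57 for Ile-TAT. In limma it ran from -0.99 to 0.74 for pre-tRNA-Leu-CAA, -0.63 to 0.73 for Ile-TAT, -2.23 to 0.27 for SeC-TCA, -0.98 to 0.33 for Arg-TCT, -0.57 to 0.0772 for Tyr-GTA, -1.50 to 0.0180 for the locus Arg-TCT-4-1 and -0.22 to 0.11 for mature Ile-AAT. Precursor values rest on 50822 to 318628 reads per mouse. The confidence intervals given in the report show the precision of each difference, and a smallest detectable difference was not computed.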
